A study of Mus musculus with 30 samples.

Results

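Tdpoz1 to Tdpoz5 and Usp17la to Usp17le are 2 small families of closely related mouse genes that lie in clusters. They were taken from the deposited expression table by symbol, which gave 5 Tdpoz rows and 5 Usp17l rows, 10 of 49585 rows in all. The table covers 4 RNA libraries of 8-cell embryos of the cross BDF1 x BDF1, cultured in KSOM medium: 2 after Yy1 knockdown with the siRNA that the labels number 1, and 2 after control knockdown. The labels give no other allele or agent for either group. With 1 siRNA, effects of less Yy1 and effects of that siRNA on other transcripts cannot be told apart. The remaining 26 of the 30 samples of the series were not analysed here. Values are FPKM, fragments scaled to gene length and library size by the authors, so levels can be set side by side between genes. For near-identical copies this is limited, as how reads that map to several copies were counted is not given. The comparison asks how transcripts of the families differ when YY1, a zinc finger transcription factor, is reduced at the 8-cell stage.

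Tdpoz proteins join a MATH domain (also called TRAF domain), which binds substrates, to a BTB/POZ domain, which binds the scaffold protein CUL3. Their closest well-studied relative is SPOP, a substrate adaptor of CUL3 ubiquitin ligases, and Tdpoz transcripts are best known from the early mouse embryo. Usp17l genes, also named Dub genes, code for deubiquitinases, which take ubiquitin off proteins; the founding mouse members Dub1 (Usp17la) and Dub2 (Usp17lc) were found as genes that cytokines switch on in blood cells. One family is thus related to proteins that help add ubiquitin and the other removes it, and each is present as several neighbouring copies.

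The libraries held 34074291 and 29302489 fragments after Yy1 knockdown, against 34429515 and 31405476 fragments after control knockdown, as recovered from the steps between FPKM values. Yy1 had 5.89 and 7.98 FPKM in libraries labelled as its knockdown, against 77.7 and 71.2 FPKM in control libraries, with no overlap (log2 fold change -3.26 ± 0.19 SE, n = 2 each, limma adjusted p = 0.0556). Embryo markers such as Klf4 were present, and of 13 cumulus cell markers, 7 sperm markers and 5 blood markers only Amhr2 passed the filter of a mean of 1 FPKM. The labels do not say whether the replicates were separate collections of embryos, so the p-values rest on a spread that may be only technical. In whole embryos, fewer cells with a transcript and less transcript per cell cannot be told apart.

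Upstream sequences are shown first because they show which copies of each family have the most alike upstream stretches. RefSeq (GRCm38.p6, the assembly behind the mm10 build) gave a window upstream of the gene start for 7 of the 10 members, and for Tdpoz7, Tdpoz8 and Tdpoz9, other Tdpoz genes of the same chromosome. The gene models of Tdpoz4, Tdpoz5 and Tdpoz7 open with the start codon ATG, so their windows lie before the coding start and not before a known transcript start, and they are printed up to a TTTTCAG near their end. The stretches are chr3:93676284-93676533 on the minus strand for Tdpoz1, chr3:93796148-93796359 on the plus strand for Tdpoz4, chr3:93961349-93961564 on the minus strand for Tdpoz5 and chr3:94072679-94072894 on the minus strand for Tdpoz7. They are written 5′ to 3′ on the strand of the gene, with matches to 3 motifs in capitals, which are TATANAA, then TTTTCAG, and lastly CCATNTT on the opposite strand.
Tdpoz1: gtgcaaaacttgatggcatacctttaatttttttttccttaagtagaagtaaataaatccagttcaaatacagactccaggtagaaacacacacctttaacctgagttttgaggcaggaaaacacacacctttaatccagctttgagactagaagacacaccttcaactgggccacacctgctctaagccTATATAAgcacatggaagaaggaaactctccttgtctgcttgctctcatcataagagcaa
Tdpoz4: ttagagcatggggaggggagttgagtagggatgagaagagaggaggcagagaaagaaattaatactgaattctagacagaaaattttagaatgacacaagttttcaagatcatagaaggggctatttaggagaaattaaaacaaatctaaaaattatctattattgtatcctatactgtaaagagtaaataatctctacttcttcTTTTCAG
Tdpoz5: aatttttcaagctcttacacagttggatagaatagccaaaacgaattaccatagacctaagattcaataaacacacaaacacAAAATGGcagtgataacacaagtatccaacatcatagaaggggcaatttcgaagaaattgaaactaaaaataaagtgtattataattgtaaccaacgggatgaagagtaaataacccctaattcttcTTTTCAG
Tdpoz7: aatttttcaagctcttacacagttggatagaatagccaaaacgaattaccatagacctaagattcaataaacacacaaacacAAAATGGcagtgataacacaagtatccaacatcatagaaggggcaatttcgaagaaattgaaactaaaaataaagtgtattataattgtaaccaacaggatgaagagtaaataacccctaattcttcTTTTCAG

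Over the full windows of 250 bases, Tdpoz5 and Tdpoz7 were identical at 249 positions, with the one difference G179A, counted from the 5′ end of the window with the base of Tdpoz5 first. Tdpoz1 and Tdpoz9 matched at 222 of 222 aligned bases, while Tdpoz4 and Tdpoz5 matched at 77.3% of 225 aligned bases. The letters TATANAA, the form of a TATA box, stood 60 bases before the gene start of Tdpoz1 and 33 bases before that of Tdpoz9. Of 32851 RefSeq windows of the same length, 10.4% held TATANAA on either strand. Tdpoz4, Tdpoz5 and Tdpoz7 held none and instead shared TTTTCAG 45, 41 and 41 bases before the start, letters that 5.5% of the windows held. The core of the YY1 motif, searched as CCATNTT, was found on the opposite strand in Tdpoz5 and Tdpoz7, 168 bases before the start, and in 12.4% of the windows. Another form of the YY1 core, ATGGCG, was in none of the members' windows and in 5.73% of the windows. TATANAA and TTTTCAG were chosen after the sequences had been seen, and a match describes letters, not a bound site.

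The windows of the Usp17l members were 92.7% to 97.3% identical between pairs, over 165 to 228 aligned bases. Pairs of Tdpoz1, Tdpoz4 and Tdpoz5 were 73.0% to 77.3% identical. The window of Tdpoz1 lies before a spliced gene model and those of Tdpoz4 and Tdpoz5 before a coding start. Pairs with Tdpoz1 may thus set unlike parts of the genes side by side. Window 1 of Tdpoz8 was 92.1% identical to that of Tdpoz1 and window 2 of Tdpoz8 was 97.1% identical to that of Tdpoz4. Window 1 lies before the gene start of Tdpoz8 and window 2 inside its gene model. Shown are 50 bases of the Usp17l windows around the TATANAA match, where the Usp17l members differ at single positions. They lie at chr7:103416580-103416629 (plus strand) for Usp17lc, chr7:103252594-103252643 (minus strand) for Usp17ld, chr7:104842593-104842642 (minus strand) for Usp17lb and chr7:104856942-104856991 (plus strand) for Usp17la. The gene model of Usp17ld also opens with ATG, so its window lies before the coding start. Capitals mark TATANAA or, in Usp17la, the bases aligned with it.
Usp17lc: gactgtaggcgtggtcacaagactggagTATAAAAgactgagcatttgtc
Usp17ld: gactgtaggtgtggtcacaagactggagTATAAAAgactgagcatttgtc
Usp17lb: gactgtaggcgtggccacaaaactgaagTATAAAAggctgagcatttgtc
Usp17la: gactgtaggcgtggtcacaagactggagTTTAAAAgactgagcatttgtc

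Against Usp17lc, and counted from the 5′ end of the stretch with the base of Usp17lc first, Usp17ld differed by C10T alone. Usp17lb differed by T15C, G21A, G26A and A37G. Usp17la differed by A30T alone, which falls inside the TATA-like letters, so that Usp17la held no TATANAA match. Usp17la was also the member with the lowest level, and a relation between these letters and the level was not tested.

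All 10 members were measured, and all 10 had a higher mean after Yy1 knockdown, but none passed the test. The test, limma on log2(FPKM + 1) with Benjamini-Hochberg adjustment over 12120 rows with a mean of at least 1 FPKM, called 0 rows, or 0% of those tested. At an unadjusted p under 0.05 there were 1079 rows, 8.9% of those tested, and 4.22% were higher after knockdown. Of the members, 8 passed the filter and 2 of them, Tdpoz3 and Usp17lc, had an unadjusted p under 0.05, both higher. In 5 members (Tdpoz1, Tdpoz3, Tdpoz5, Usp17lc and Usp17ld) both knockdown libraries lay above both control libraries, and in 0 members both lay below. Among all tested rows, 21.8% lay above without overlap and 18.9% below, and 53.2% had a log2 fold change above 0. With 2 libraries in each group an exact two-sided permutation test of a single value cannot give a p below 0.333.

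**Figure D1:**
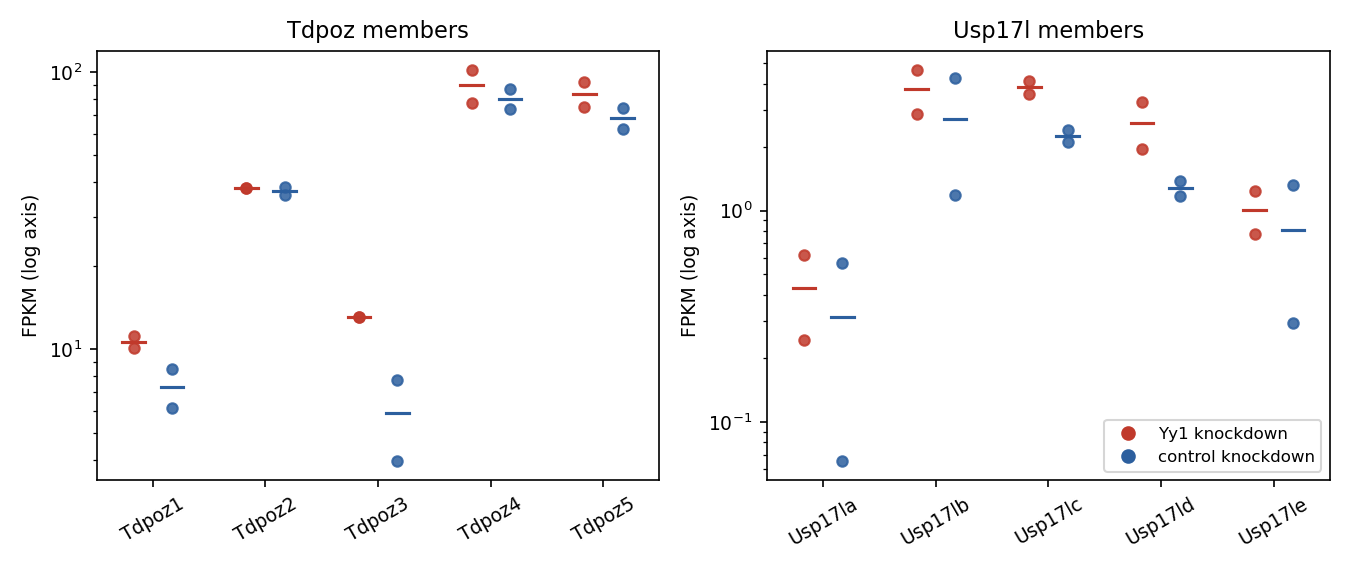
FPKM (log axis) of each Tdpoz member (left panel) and each Usp17l member (right panel), with 1 point per library and a bar at the group mean, Yy1 knockdown in red to the left of control knockdown in blue. The knockdown points of Tdpoz1, Tdpoz3, Tdpoz5, Usp17lc and Usp17ld lie above both control points, and those of the other 5 members overlap with the control points.

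The abundant Tdpoz members differed little between groups. Tdpoz4 (chr3:93796398-93797510, a single uninterrupted gene model) had 77.4 and 101 FPKM in Yy1 knockdown embryos, against 86.5 and 73.6 FPKM in control embryos, from 2574 to 3315 fragments. Its groups overlapped, with the highest value in one knockdown library and the next highest in a control library (log2 fold change 0.15 ± 0.18 SE, n = 2 each, limma adjusted p = 0.834). Without Yy1 knockdown replicate 2 the sign turned, to -0.044. Tdpoz5 (chr3:93960292-93961314) had 92.2 and 74.7 FPKM after Yy1 knockdown, against 62.3 and 73.9 FPKM after control knockdown. The lower knockdown value exceeded the higher control value by less than the distance between replicates of either group (log2 fold change 0.29 ± 0.17 SE, limma adjusted p = 0.669). Tdpoz2 (chr3:93651542-93652686) had 38.3 and 38.1 FPKM in knockdown libraries and 36.1 and 38.4 FPKM in control libraries. It was the steadiest member, its highest library at 1.06 times its lowest (log2 fold change 0.03 ± 0.13 SE, limma adjusted p = 0.956), and without control replicate 1 its fold change was -0.0078. Tdpoz4 and Tdpoz5 ranked above 92.3% and 91.5% of the tested rows by mean FPKM, so these are abundant transcripts at this stage.

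The scarcer Tdpoz members stood apart more. Tdpoz3 (chr3:93826020-93827117) had 13.04 and 13.02 FPKM in Yy1 knockdown embryos, from 488 and 419 fragments, against 3.97 and 7.77 FPKM in control embryos, from 150 and 268 fragments. The knockdown libraries were nearly equal, and the control libraries were spread more widely and both lay below them (fold of means 2.22, log2 fold change 1.09 ± 0.30 SE, n = 2 each, unadjusted p = 0.0120, limma adjusted p = 0.502). Leaving out 1 library at a time gave log2 fold changes of 0.68 to 1.498. Tdpoz1 (chr3:93669333-93676283, a spliced gene that RefSeq also lists as 2cpoz56) had 11.1 and 10.1 FPKM after Yy1 knockdown, against 8.47 and 6.16 FPKM after control knockdown. Both knockdown libraries lay above both controls, at a log2 fold change of 0.50 ± 0.21 SE (unadjusted p = 0.0563, limma adjusted p = 0.571).

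By mean over the 4 libraries the order was Tdpoz4, Tdpoz5, Tdpoz2, Tdpoz3 and Tdpoz1. Tdpoz4 exceeded Tdpoz5 in 2 of 4 libraries, so these neighbours did not differ beyond their spread. The step down to Tdpoz2 and the step from there to Tdpoz3 held in 4 of 4 libraries with no overlap, while Tdpoz3 exceeded Tdpoz1 in 3 of 4. Tdpoz4 made up 33.4% to 43.8% of the summed Tdpoz FPKM of a library and Tdpoz5 31.5% to 39.7%, with Tdpoz2 at 16.04% to 19.2%. Tdpoz1 and Tdpoz3 together with these made a sum of 232 and 237 FPKM in Yy1 knockdown libraries, against 197 and 199.8 FPKM in control libraries. The means were 235 ± 3.76 FPKM after Yy1 knockdown and 199 ± 1.69 FPKM after control knockdown (SD, n = 2 each), a ratio of 1.18. The groups did not overlap and replicates differed by less than the groups did; as the members were chosen with earlier results known, the sum has no test.

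Split by level, which was done after the values were seen, the 3 abundant members summed to 208 and 214 FPKM in Yy1 knockdown libraries, against 185 and 186 FPKM in control libraries, a ratio of 1.14. Tdpoz1 and Tdpoz3 summed to 24.2 and 23.2 FPKM after Yy1 knockdown, against 12.4 and 13.9 FPKM after control knockdown, a ratio of 1.80. The abundant copies therefore set the family sum, and the larger relative difference was in its smaller share. No test of the difference between these ratios was run.

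**Figure D2:**
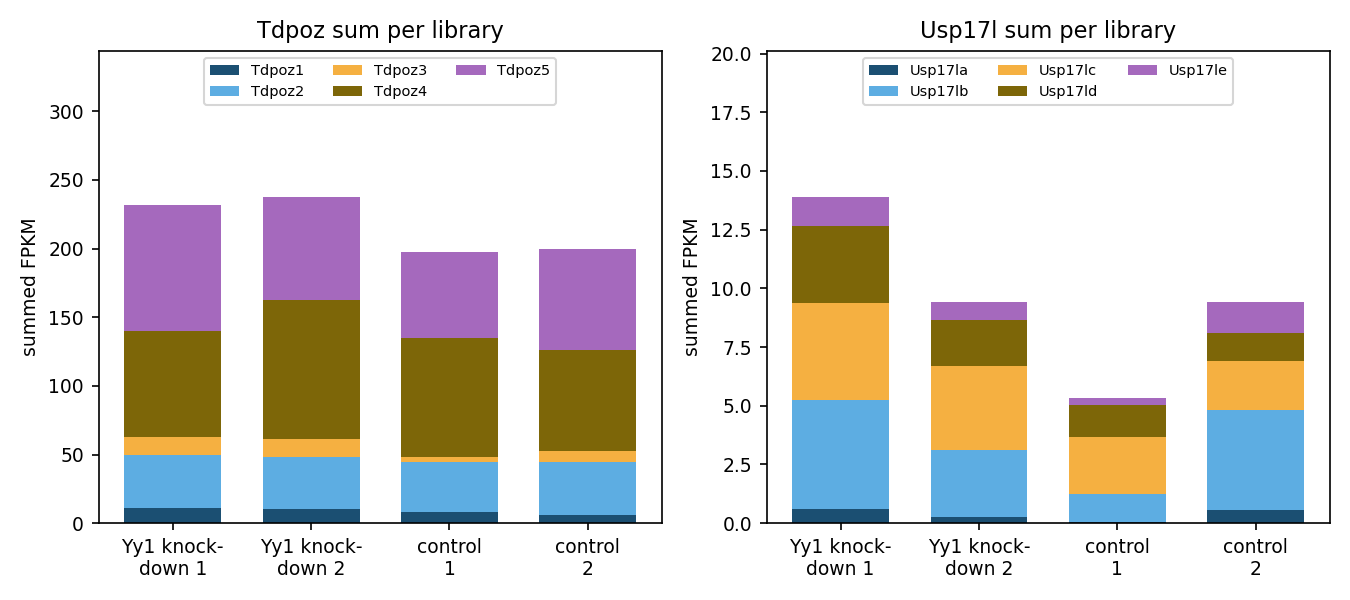
Summed FPKM of the 5 Tdpoz members (left panel) and the 5 Usp17l members (right panel) in each library, stacked by member, with the Yy1 knockdown libraries left of the control libraries. The Tdpoz stacks reach 232 and 237 FPKM after Yy1 knockdown and 197 and 199.8 FPKM after control knockdown, and the second knockdown library and the second control library have equal Usp17l stacks of 9.42 FPKM.

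The Usp17l transcripts were scarce, and they fell into a pair and a trio that varied differently across the libraries. Usp17lc (chr7:103416696-103419174, the gene of Dub2) had 4.13 and 3.56 FPKM in Yy1 knockdown embryos, from 345 and 256 fragments, against 2.404 and 2.12 FPKM in control embryos, from 203 and 163 fragments. The groups were apart by more than either pair of replicates (fold of means 1.70, log2 fold change 0.57 ± 0.22 SE, n = 2 each, unadjusted p = 0.0421, limma adjusted p = 0.552). Usp17ld (chr7:103250086-103252505, Dub2a) had 3.26 and 1.96 FPKM after Yy1 knockdown, against 1.39 and 1.17 FPKM after control knockdown. Its groups did not overlap, although the knockdown libraries differed from each other by more than the nearer one did from the controls (log2 fold change 0.64 ± 0.29 SE, limma adjusted p = 0.593).

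Usp17lb (chr7:104840257-104842583, Dub1a) had 4.62 and 2.89 FPKM in Yy1 knockdown libraries, against 1.19 and 4.24 FPKM in control libraries, from 64 to 246 fragments. Control replicate 1 was far below the other libraries and the groups overlapped (log2 fold change 0.46 ± 0.46 SE, limma adjusted p = 0.789), and without that library the sign turned, to -0.17. Usp17le (chr7:104767961-104777470, Dub3) had 1.24 and 0.773 FPKM after Yy1 knockdown, against 0.292 and 1.33 FPKM after control knockdown. Usp17la (chr7:104857016-104862667, Dub1) had 0.619 and 0.244 FPKM after Yy1 knockdown, against 0.0656 and 0.563 FPKM after control knockdown. Both genes had a mean below 1 FPKM and were not tested, and their counts were small, down to 6 fragments for Usp17la in control replicate 1. Fragments that PCR copied are not independent molecules, so the counts may understate the counting error.

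Set over each gene's own mean, Usp17la, Usp17lb and Usp17le shared their lowest library. Control replicate 1 was lowest, at 0.176, 0.368 and 0.322 times the mean, and Yy1 knockdown replicate 1 and control replicate 2 were both above the mean in each. In Usp17lc and Usp17ld both knockdown libraries were above the mean and both control libraries below it. The trio lies within 94.7 kb and the pair within 169.1 kb of chromosome 7, in a family that spans 1612.6 kb. Grouped in this way after the values were seen, Usp17lc and Usp17ld summed to 7.39 and 5.52 FPKM in Yy1 knockdown libraries, against 3.79 and 3.29 FPKM in control libraries, a ratio of 1.82. The trio summed to 6.48 and 3.90 FPKM after Yy1 knockdown, against 1.55 and 6.14 FPKM after control knockdown, a ratio of 1.35 that became 0.846 without control replicate 1 and 3.35 without control replicate 2. Closely related copies can share reads, and the part of shared reads in the likeness within the pair and the trio was not tested.

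**Figure D3:**
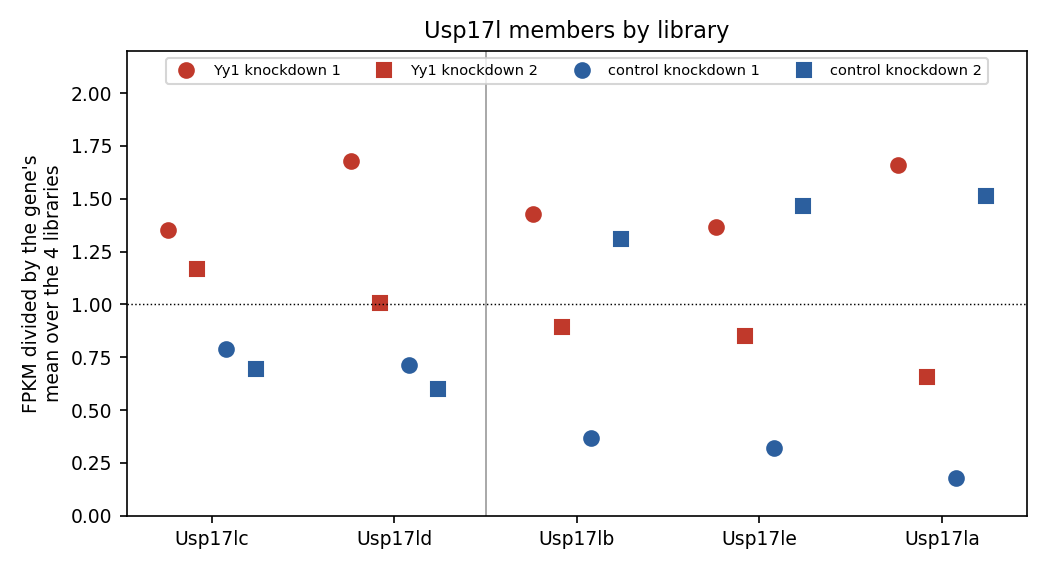
FPKM of each Usp17l member divided by its own mean over the 4 libraries, with 1 marker per library, Yy1 knockdown in red to the left of control knockdown in blue, and a grey line between Usp17lc and Usp17ld on the left and the other 3 on the right. Control replicate 1 (blue circle) is lowest in Usp17lb, Usp17le and Usp17la, at 0.368, 0.322 and 0.176, and is above control replicate 2 in Usp17lc and Usp17ld.

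The summed Usp17l level was 13.9 and 9.42 FPKM in Yy1 knockdown libraries, against 5.34 and 9.42 FPKM in control libraries. The means were 11.6 ± 3.15 FPKM after Yy1 knockdown and 7.38 ± 2.89 FPKM after control knockdown (SD, n = 2 each, ratio 1.58). Replicate 2 of each group had the same sum, but the replicate numbers are not shown to pair the libraries. Usp17lb and Usp17lc were the leading members, each above the other in 2 of 4 libraries, and Usp17lc exceeded Usp17ld in 4 of 4. Usp17ld exceeded Usp17le in 3 of 4 libraries and Usp17le exceeded Usp17la in 4 of 4, although the ranges of each pair of neighbours overlapped. Usp17lb took between 22.3% and 45.0% of the sum and Usp17lc between 22.5% and 45.0%, wider ranges than those of Tdpoz4 and Tdpoz5 in their sum.

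The table lists the other Tdpoz genes under the predicted names Gm10697 (Tdpoz7), Gm4858 (Tdpoz8) and Gm9125 (Tdpoz9). Gm10697 had 76.6 and 66.3 FPKM in Yy1 knockdown libraries, against 54.8 and 64.9 FPKM in control libraries (log2 fold change 0.25 ± 0.16 SE, limma adjusted p = 0.674). The ratio of Tdpoz5 to it stayed between 1.13 and 1.20 over the 4 libraries, for a pair of genes whose upstream windows differ at 1 base. The part of reads shared between the copies in this ratio was not tested. The ratio of Tdpoz1 to Gm9125, whose windows matched at 222 of 222 aligned bases, was 0.760 to 1.19. That of Tdpoz4 to Gm4858 was 4.34 to 5.61. The window of Tdpoz4 was 97.1% identical to window 2 of Tdpoz8 and 75% identical to window 1. Window 2 (chr3:93073271-93073520) lies inside the gene model of Tdpoz8 (chr3:93068823-93075505), so its likeness to the window of Tdpoz4 is not one between upstream windows. A relation between windows and levels was not tested. Gm9125 had 10.9 and 13.3 FPKM after Yy1 knockdown, against 7.10 and 7.48 FPKM after control knockdown, with no overlap (log2 fold change 0.65 ± 0.18 SE, unadjusted p = 0.0133, limma adjusted p = 0.508). Gm4858 had 13.8 and 23.4 FPKM after Yy1 knockdown, against 16.4 and 14.4 FPKM after control knockdown, with groups that overlapped. The pseudogene Usp17le-ps had 1 fragment in each knockdown library and was listed at 0 in both control libraries.

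Rows around the Tdpoz members showed the same lean, pseudogenes included. Apart from Tdpoz7 and Tdpoz9, 15 other rows lay within 200 kb of a member, of which 13 passed the filter, and 11 of these 13 had a higher mean after Yy1 knockdown. In 9 of the 13 the knockdown libraries lay above the controls without overlap, against 21.8% of all tested rows, and in 1 they lay below, against 18.9%. The median log2 fold change of the 13 was 0.61, beside 0.02 for all tested rows, and 0 were called. How reads that map to several copies were counted is not given, so the 13 rows may not be separate measurements. Between the outermost members, over 309.8 kb, the 5 other rows are RefSeq pseudogenes, and 4 of them lay above without overlap. The 3 neighbours with the highest means were Gm5541, Gm5773 and Gm5852. Gm5541 had 44.2 and 49.5 FPKM in Yy1 knockdown libraries, against 47.52 and 47.52 FPKM in control libraries, and Gm5773 had 40.1 and 43.4 FPKM against 48.4 and 46.8 FPKM, below without overlap (log2 fold change -0.19 ± 0.14 SE, limma adjusted p = 0.709).

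Gm5852 had 25.9 and 16.3 FPKM after Yy1 knockdown, against 14.1 and 12.0 FPKM after control knockdown. Chosen after its values were seen, the pseudogene Gm9113 had the largest fold change in the region, with 9.74 and 12.0 FPKM in Yy1 knockdown libraries, against 1.97 and 3.03 FPKM in control libraries (log2 fold change 1.77 ± 0.24 SE, unadjusted p = 0.000446, limma adjusted p = 0.246). The protein-coding gene S100a10, which codes for a small calcium-binding family protein and lies outside the cluster, had 7.07 and 7.74 FPKM after Yy1 knockdown, against 3.07 and 3.42 FPKM after control knockdown, and was also named after its values were seen. The row Gm9117 had 0.999 to 1.03 times the FPKM of Gm9125 in each library, so these rows cannot be counted as separate measurements.

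**Figure D4:**
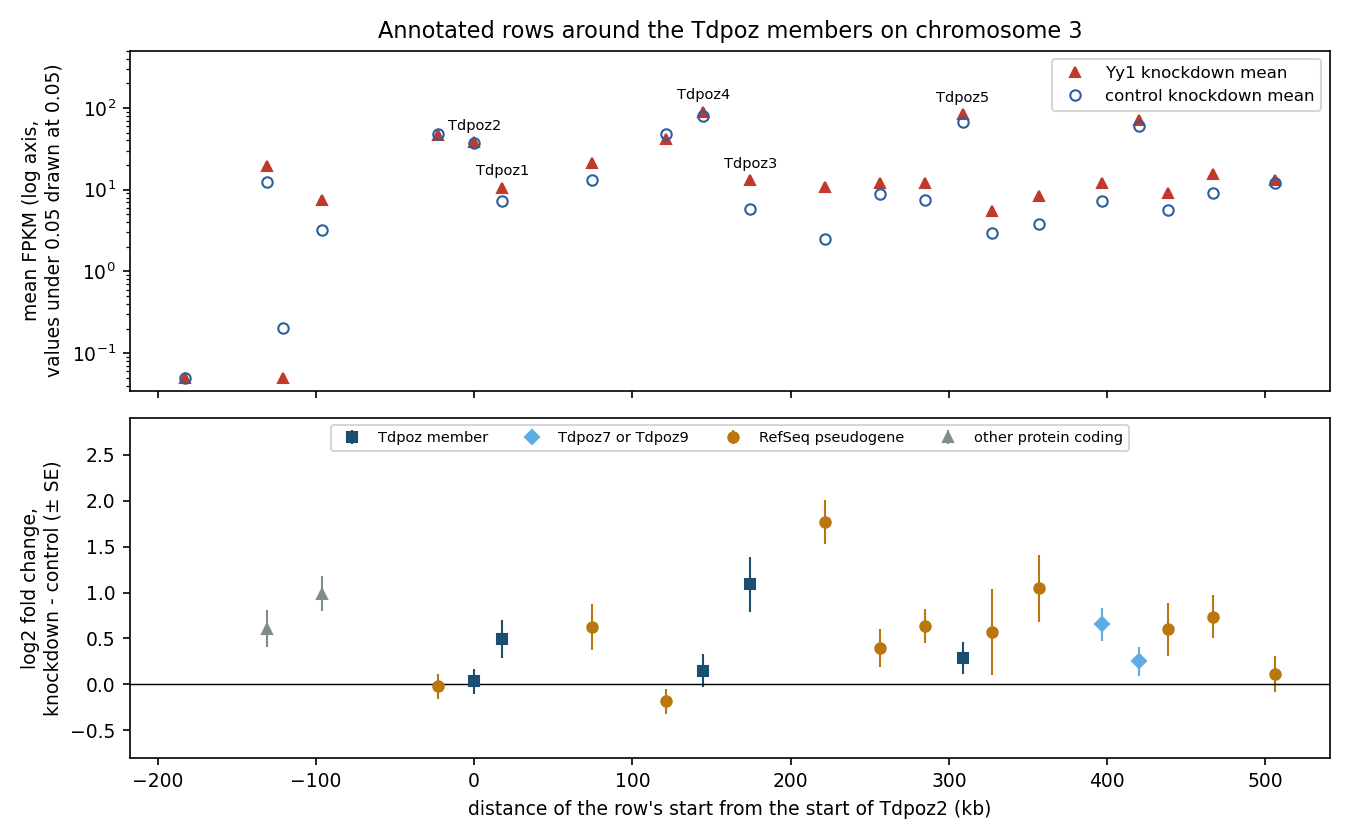
Rows on chromosome 3 by the distance of their start from the start of Tdpoz2 in kb. The upper panel gives mean FPKM on a log axis for Yy1 knockdown (red triangles) and control knockdown (blue circles), and the lower panel gives the log2 fold change of the tested rows with its SE; the steepest point, 1.77, is Gm9113, and the lowest, -0.19, is Gm5773.

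Most rows around the Usp17l members were listed at 0. Apart from Usp17le-ps, 65 other rows lay within 200 kb of a Usp17l member, of which 60 are olfactory receptor genes, and 53 of the 65 were listed at 0 in all 4 libraries. Only 3 passed the filter, Gm5900, Gm4887 and Olfr620. Gm4887 had 1.31 and 2.204 FPKM in Yy1 knockdown libraries, against 2.54 and 2.87 FPKM in control libraries, and lay below without overlap. Its place (chr7:104821157-104823758) is between Usp17le and Usp17lb, whose groups overlapped. Gm5900 had 3.05 and 7.37 FPKM after Yy1 knockdown, against 3.72 and 9.93 FPKM after control knockdown, from 13 to 39 fragments.

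The ligase machinery that MATH-BTB proteins work with showed no common direction. Among 21 genes of SPOP and its CUL3 partners, 19 passed the filter, with 10 higher and 9 lower by mean after Yy1 knockdown and a median log2 fold change of 0.0058, beside 0.02 for all tested rows. It lay between -0.023 and 0.025 when 1 library was left out, the lowest without control replicate 1. Spop had 19.6 and 18.2 FPKM in Yy1 knockdown libraries, against 18.9 and 21.3 FPKM in control libraries, and Cul3 had 38.1 and 45.1 FPKM against 39.2 and 40.8 FPKM. Both overlapped between groups. The summed Tdpoz level, 197 to 237 FPKM, exceeded that of Spop in each library. The list's smallest p belonged to Cops2, a subunit of the COP9 signalosome that takes NEDD8 off cullins, at 23.0 and 23.2 FPKM after Yy1 knockdown, against 30.2 and 31.4 FPKM after control knockdown (log2 fold change -0.40 ± 0.14 SE, limma adjusted p = 0.532). Of 39 other BTB adaptors of CUL3, 28 passed, with 12 higher and 16 lower and a median of -0.09 that became 0.023 without Yy1 knockdown replicate 2. Klhl21, an adaptor used in cell division, had 13.6 and 12.3 FPKM after Yy1 knockdown, against 18.9 and 17.9 FPKM after control knockdown. Of 10 other MATH domain genes, 6 passed, with 5 higher and 1 lower and a median of 0.18. Mep1b, which codes for a metalloprotease with a MATH domain, had 14.48 and 14.42 FPKM after Yy1 knockdown, against 11.5 and 12.2 FPKM after control knockdown (limma adjusted p = 0.664).

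Other deubiquitinases showed no firm direction. Of 51 other ubiquitin specific peptidases, 36 passed, with 14 higher and 22 lower by mean after Yy1 knockdown, a median log2 fold change of -0.05, with 4 of the 36 above and 9 below without overlap, beside 21.8% and 18.9% of all tested rows. The median became 0.012 without Yy1 knockdown replicate 2 and also without control replicate 2. Usp15, which acts on several signalling proteins, had 20.9 and 20.1 FPKM in Yy1 knockdown libraries, against 28.6 and 29.7 FPKM in control libraries (log2 fold change -0.49 ± 0.14 SE, limma adjusted p = 0.518). No row of these lists was called.

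Genes that mark embryo stages are given beside the members, as Tdpoz genes are themselves early embryo transcripts. Of 15 genes typical of the 2-cell stage, 14 had a row and 12 passed, and 11 of the 12 had a higher mean after Yy1 knockdown, with a median log2 fold change of 0.46, beside 53.2% and 0.02 for all tested rows. Without overlap were 3 of the 12, a share near the 21.8% of all tested rows. The list holds families with several copies, such as the Zscan4 genes, so its rows may not be separate measurements. The median became 0.77 with a pseudocount of 0.1 and 0.89 with limma-voom on recovered fragments. It lay between 0.31 and 0.54 when 1 library was left out, the lowest without control replicate 1. Their summed level was 126 and 129 FPKM in Yy1 knockdown libraries, against 92.7 and 109 FPKM in control libraries. Tcstv3, a transcript of the 2-cell stage, had 9.03 and 6.09 FPKM after Yy1 knockdown, against 3.13 and 2.19 FPKM after control knockdown (log2 fold change 1.22 ± 0.27 SE, limma adjusted p = 0.462). Pramef6, a member of the PRAME family, had 2.97 and 3.11 FPKM after Yy1 knockdown, against 2.09 and 1.68 FPKM after control knockdown (limma adjusted p = 0.604). Of 13 oocyte transcripts 12 passed, with 8 higher and 4 lower and a median of 0.27 that became -0.07 without Yy1 knockdown replicate 1, and their summed level was 107 and 81.6 FPKM after Yy1 knockdown, against 77.8 and 78.7 FPKM after control knockdown. Npm2, an egg histone chaperone, had 25.1 and 21.8 FPKM after Yy1 knockdown, against 17.89 and 17.92 FPKM after control knockdown. Of 12 embryo markers that rise after genome activation, 3 were higher and 9 lower, with a median of -0.07 that became -0.22 when replicate 1 of the Yy1 knockdown was left out and 0.071 when its replicate 2 was. Their summed level was 978 and 883 FPKM after Yy1 knockdown, against 1053 and 1024 FPKM after control knockdown. Among them Klf4, a pluripotency factor, had 22.1 and 16.5 FPKM after Yy1 knockdown, against 26.4 and 31.4 FPKM after control knockdown. The part of embryo stage or pace in the members' levels was not tested.

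Markers of other cells were at or near 0, with the exception of Amhr2. The 13 cumulus and granulosa markers summed to 8.63 and 8.36 FPKM after Yy1 knockdown, against 6.90 and 5.50 FPKM after control knockdown, and most of this was Amhr2, at 7.80 and 7.30 FPKM against 5.35 and 4.74 FPKM. Of these 13 markers, Fshr, Inha, Has2 and Ptx3 were listed at 0 in all 4 libraries, and the others were not. The sperm markers Prm1, Tnp1, Tnp2, Odf1 and Akap4 and the blood markers Hbb-bs and Hbb-bt were also listed at 0 throughout. The 7 sperm markers summed to 0.0241 and 1.498 FPKM in Yy1 knockdown libraries, against 0.129 and 0.784 FPKM in control libraries, and the 5 blood markers to 0.968 and 1.68 FPKM against 1.305 and 0.261 FPKM.

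**Figure D5:**
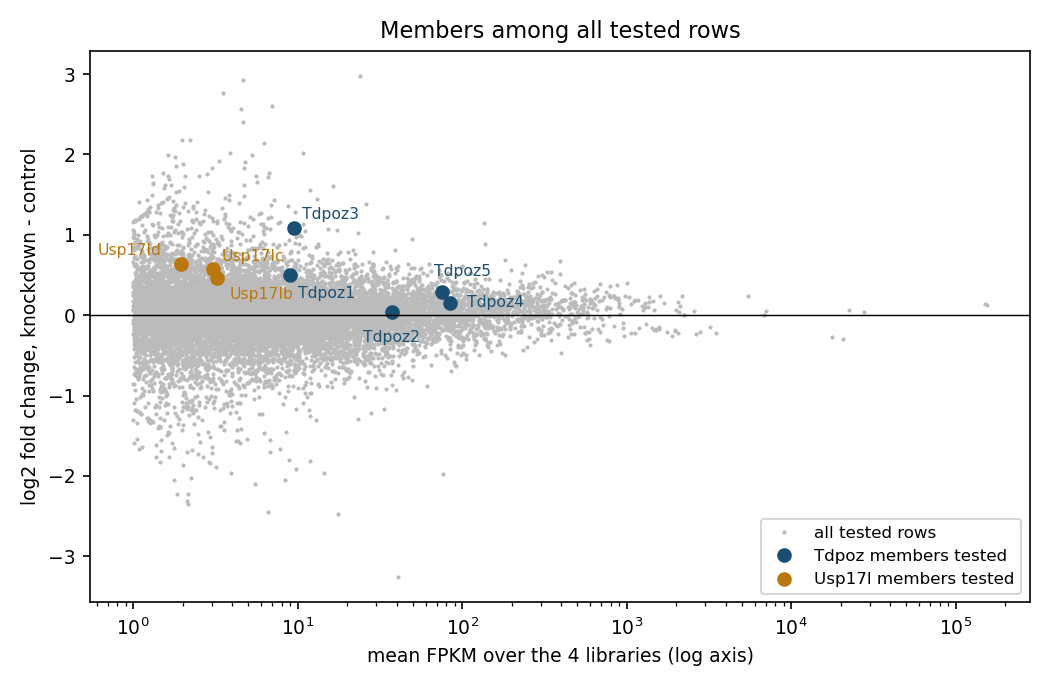
Log2 fold change (Yy1 knockdown minus control knockdown) of all 12120 tested rows against mean FPKM over the 4 libraries (log axis), with the tested Tdpoz members in dark blue and the tested Usp17l members in orange. The 8 members lie above 0, between 0.03 for Tdpoz2 and 1.09 for Tdpoz3, within the cloud of rows of like level.

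The rows most like each family sum across the 4 libraries were sought by the Euclidean distance between log2(FPKM + 1) profiles set to their own mean, among rows of like level. For the Tdpoz sum, with 282 candidates, these were Gdi2, Eif4b and Eif2s2, at distances of 0.0271, 0.0651 and 0.0845. Gdi2 had 187 and 189 FPKM in Yy1 knockdown libraries, against 158 and 157 FPKM in control libraries. For the Usp17l sum, with 3195 candidates, they were Efhd2, Ahnak and Zfp995, at distances of 0.0805, 0.155 and 0.173. Efhd2 had 13.6 and 9.90 FPKM in Yy1 knockdown libraries, against 5.45 and 10.003 FPKM in control libraries. As in the Usp17l sum, Yy1 knockdown replicate 1 was highest, control replicate 1 was lowest and the other libraries lay close together. Likeness over 4 libraries, the same ones for every row, is a description only.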

How the data were processed

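RNA of 4 libraries of 8-cell embryos was made with the SMART-Seq stranded kit, per the labels' protocols. The deposited values are FPKM that the authors computed. Named in the submitters' processing notes, without roles, are mm10, HISAT2 2.2.1, Trim Galore 0.6.7, featureCounts, bedtools, SAMtools 1.4.1, Bowtie2 2.4.3 and R 4.0.3. Not given in the sources used here are the annotation, the strand setting and how reads that map to several copies were counted, so near-identical copies and antisense partners are uncertain. Whole fragments were recovered for 12120 of 12120 tested rows (within 0.02 fragments), giving 29302489 to 34429515 fragments per library.

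Rows with a mean of at least 1 FPKM were tested with limma 3.58.1 (R 4.3.3) on log2(FPKM + 1), group alone, with a mean-variance trend, Benjamini-Hochberg adjustment and a threshold of 0.05; this scale understates folds of low genes. Family sums were not tested. The fit was tested on simulated data. Symbols matched RefSeq (GRCm38.p6) for 35504 of 49492, and Tdpoz and Usp17l relatives were found by RefSeq symbol. Named were all members, Yy1, of each list with tested genes the 1 or 2 with the smallest unadjusted p (the rule allowed 4), Spop and Cul3 beside them, 3 neighbours per family by level and 3 rows per family by likeness. Members and lists were chosen with earlier results of these data known. Alternatives were another pseudocount (0.1), other filters, scalings and thresholds, limma-voom on recovered fragments, no trend, a replicate block and leaving out each library; protein-coding rows and added Tdpoz relatives were chosen after seeing the data.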

Additional observations from a re-analysis of the deposited data

How the results depend on the processing

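No member was called under any alternative run on it, the lowest limma adjusted p being 0.195 for Tdpoz3 among protein-coding rows. The count of rows called over all rows tested, 0, became 3 at an adjusted p of 0.1, 4 with a filter of 5 FPKM, 13 with limma-voom on recovered fragments and 15 among 8566 protein-coding rows, the last chosen after seeing the data. The cause was not tested, though the filter and the protein-coding set leave fewer rows to adjust over. It was 0 whichever library was left out and 0 under the remaining alternatives. The ratio of the Tdpoz sums, 1.18, became 1.17 with median-ratio scaling and 1.198 with Tdpoz7, Tdpoz8 and Tdpoz9 added, and lay between 1.17 and 1.195 without 1 library. The ratio of the Usp17l sums, 1.58, lay between 1.24 and 2.18 without 1 library, the lowest without control replicate 1 and the highest without control replicate 2. Reversed were the log2 fold changes of Tdpoz2 without control replicate 1 (-0.0078), Tdpoz4 without Yy1 knockdown replicate 2 (-0.044) and Usp17lb without control replicate 1 (-0.17). Without 1 library, Tdpoz1 lay between 0.30 and 0.70, Tdpoz2 between -0.0078 and 0.077, Tdpoz3 between 0.68 and 1.498, Tdpoz4 between -0.044 and 0.34, Tdpoz5 between 0.14 and 0.44, Usp17lb between -0.17 and 1.09, Usp17lc between 0.49 and 0.65 and Usp17ld between 0.38 and 0.91. Under the other alternatives these 8 kept their sign, and Usp17lc and Usp17ld reached 0.77 and 1.001 with limma-voom.

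Same-numbered libraries of the 2 groups deviated together with a correlation of 0.0994 across rows, over only 2 numbers, so the numbers are not shown to pair the libraries. With a replicate block 0 rows were called, 1187 had an unadjusted p under 0.05 against 1079 without it, and the sum ratios were 1.18 for Tdpoz and 1.61 for Usp17l. Depth limits Usp17la and Usp17le most, with 6 to 84 fragments per library, and reads shared between copies limit each single member of both families.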
